A study of Drosophila melanogaster
Mus musculus with 21 samples.

Results

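The genes described are the anterior and central members of the mouse Hoxa cluster, Hoxa2, Hoxa3, Hoxa4, Hoxa5, Hoxa6 and Hoxa7. They were taken by symbol from each of the 5 deposited tables, and each symbol had 1 entry, so that they make up 6 of 20633 entries. In the same order their RefSeq identifiers in the tables are NM_010451, NM_010452, NM_008265, NM_010453, NM_010454 and NM_010455. Nuclear RNA was sequenced from E14 mouse embryonic stem cells of 2 engineered lines, and Drosophila SG4 cells were added to each sample as a spike-in. The PRC1deg line has the genotype Rosa26::Tir1, Ring1A-/- and AID-Ring1B: it expresses TIR1, a plant protein that lets auxin mark tagged proteins for degradation, lacks RING1A, and carries the auxin-inducible degron (AID) on RING1B. The untreated PRC1deg controls therefore lack RING1A too. Auxin was given at 500 µM for 2, 4, 8 or 24 h, and untreated cells of the line are the control. The PRC2deg line carries Pcgf2-HaloTag and dTAG-Suz12, and was left untreated or given 100 nM dTAG-13, the compound that acts on the dTAG degron, for 2 h. There were 3 libraries in each of the 7 groups, 21 in all, labelled as biological replicates. The labels do not say whether either line is a single clone.

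Hox genes encode homeodomain transcription factors that give cells their identity along the head to tail axis. In each cluster they lie in the order of the body levels at which they act, with the anterior genes at the 3′ side, and during development the 3′ genes are switched on before the 5′ genes. In embryonic stem cells the clusters are covered by Polycomb complexes: PRC1, built on RING1A or RING1B, ubiquitylates a core histone and compacts chromatin, and PRC2, which needs SUZ12, methylates another histone. The question put by the comparisons was which genes change, and how soon, when either complex is taken away.

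Among the members, Hoxa2 patterns the hindbrain and the second pharyngeal arch, and Hoxa3 the third arch with the thymus and parathyroid. Hoxa4 and Hoxa5 act at neck and upper thoracic levels, and Hoxa5 is also needed for the lung and airways. Hoxa6 and Hoxa7 act in the thoracic region, and HOXA7 is known in human leukaemias with rearranged MLL.

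The deposited values are group means and comparisons, with no value per library and no standard error, so no spread between replicates can be given beside them. Depth is known only as the sum of the untreated means, 30450536 normalised reads in PRC1deg and 29474239 in PRC2deg. A call below means an adjusted p under 0.05 from the authors' DESeq2 comparison and a change of over 1.5-fold. Because most entries rose somewhat under auxin, changes are also given after centring, which subtracts the median log2 fold change of well-read entries, those of 50 or more untreated reads. These medians were 0.15, 0.40, 0.50 and 0.24 at the 4 times. The label as stem cells was checked on 9 measured pluripotency markers, whose untreated levels ran from 128.7 to 3585 normalised reads per kilobase in PRC1deg and from 54.5 to 2635 in PRC2deg. Rnf2, which encodes RING1B, lay between 0.34 and 0.94 on the log2 scale over the auxin times per the authors' deposited table, and since the degron acts on protein this does not check the depletion.

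Before treatment 5 of the 6 genes were barely detected and Hoxa6 was not detected. In untreated PRC1deg cells Hoxa7 had the highest level per length at 2.27 normalised reads per kilobase, followed by Hoxa2 at 2.19, Hoxa4 at 1.74, Hoxa5 at 1.41 and Hoxa3 at 0.977, all as the authors' means. Hoxa6 was listed at 0. The order did not follow position in the cluster, and which neighbours in it differ cannot be tested without values per library.

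These levels rest on few reads. Multiplied by entry length, the authors' means come to 3.52 normalised reads for Hoxa4, 4.00 for Hoxa5, 5.28 for Hoxa2, 6.70 for Hoxa7 and 43.0 for Hoxa3. The entry of Hoxa3 spans 44006 bp, against 2017 to 2950 bp for the other members. In untreated PRC2deg cells Hoxa2 was highest at 1.01 per kilobase, then Hoxa4 at 0.716, Hoxa5 at 0.668, Hoxa7 at 0.548 and Hoxa3 at 0.321, and Hoxa6 was again listed at 0. Hoxa7 thus stood first in one line and next to last of the detected members in the other, and the lines were normalised apart, so their levels were not compared.

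**Figure D1:**
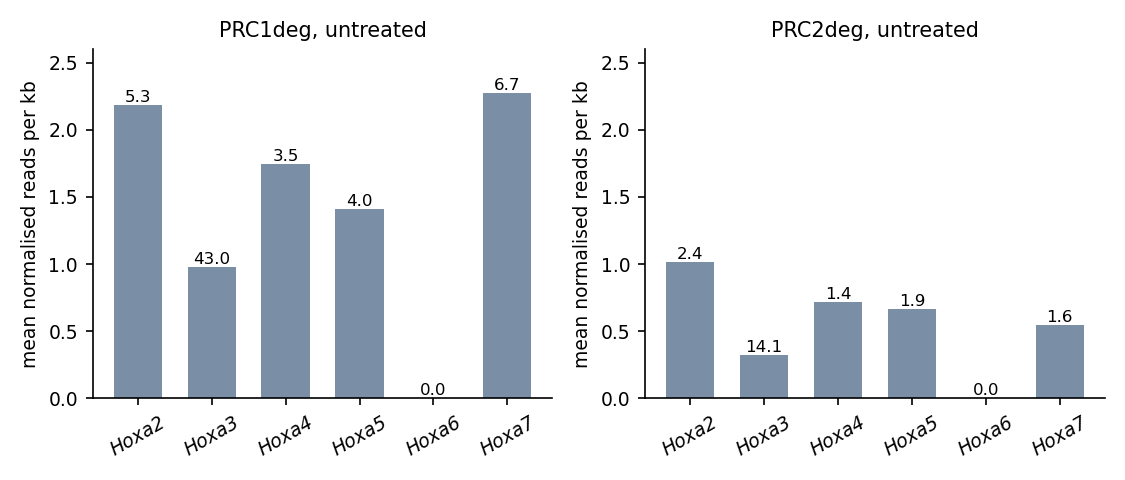
Untreated level of each gene in the PRC1deg (left) and PRC2deg (right) lines; bars are the authors' means in normalised reads per kilobase, and the number over each bar is the mean in normalised reads per gene. No gene passes 2.3 per kilobase, Hoxa6 is at 0 in both lines, and the lines were normalised separately.

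By 2 h of auxin, 3 of the 6 genes had risen. The authors' deposited table gave Hoxa5 a log2 fold change of 2.38 (adjusted p = 0.00079, DESeq2), which is a 5.19-fold rise. For Hoxa7 it gave 2.28 (adjusted p = 5.9e-05, DESeq2), or 4.87-fold, and for Hoxa3 1.82 (adjusted p = 2.0e-05, DESeq2), or 3.54-fold. Of all 18798 entries tested at this time 5.55% were called higher, and of entries in the read range of the 5 detected members 10.6% were.

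The other 3 genes were not called at 2 h. Hoxa2 had a log2 fold change of 0.99 with an adjusted p of 0.12 per the authors' deposited table, and Hoxa4 had 0.53 with an adjusted p of 0.25 (DESeq2). Hoxa6 had an adjusted p of 0.044 by the authors' deposited table (DESeq2), while its fitted change stayed under 1.5-fold, and as it is listed at 0 before treatment no fold is given for it. Called and not called genes alternated along the cluster, with Hoxa4 lying between Hoxa3 and Hoxa5. Whether Hoxa2 and Hoxa4 differed from those neighbours at 2 h was not tested. For entries with under 10 untreated reads the middle 50% of log2 fold changes at 2 h lay between -0.0086 and 0.052. For entries of over 0 and up to 1 untreated reads the 5th to 95th percentiles at 2 h were -0.019 and 0.15. Whether the authors' fit pulled weakly supported fold changes towards 0 is not given in the sources used here and was not tested. These bands are therefore no measure of noise between libraries.

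By 4 h all 6 genes had risen, against 16.1% of the 17639 entries tested and 18.5% of those in the members' read range, and the changes of the detected genes were then in the order of the cluster. The log2 fold changes per the authors' deposited table were 2.75 for Hoxa2 (adjusted p = 1.9e-05), 2.79 for Hoxa3 (4.2e-12), 3.08 for Hoxa4 (1.1e-05), 3.22 for Hoxa5 (8.8e-07) and 3.60 for Hoxa7 (5.9e-12), all by DESeq2. The step between neighbours was 0.04 to 0.39, and without standard errors none of these steps can be tested. Hoxa6 was called with an adjusted p of 0.0064 per the authors' deposited table (DESeq2). Only 28 entries listed at 0 before treatment had an adjusted p at 4 h and all 28 were called higher, and the call of Hoxa6 is to be read against that share.

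From 2 to 4 h Hoxa4 gained most among the detected genes, 2.55 on the log2 scale, and Hoxa2 gained 1.77, by subtraction of values in the authors' deposited tables. Hoxa7 gained 1.32, Hoxa3 0.96 and Hoxa5 0.84 in the same tables. The median of well-read entries moved by 0.24. A gene with a low value at 2 h has a larger difference by construction, since that value is what is subtracted. Hoxa4 and Hoxa2 had no call at 2 h, and whether the fit pulled their 2 h values towards 0 was not tested. As all auxin times are set against the same untreated libraries, these differences were not tested.

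At 8 h all 6 genes were higher, where 25.7% of 17253 entries were called higher, and 23.2% of those in the members' read range. Hoxa5 reached 3.77 (adjusted p = 5.7e-09) and Hoxa7 3.76 (adjusted p = 6.7e-13) on the log2 scale by the authors' deposited table (DESeq2), which are rises of 13.6-fold and 13.5-fold. Hoxa4 stood at 3.14 (adjusted p = 6.9e-06), Hoxa3 at 2.95 (adjusted p = 2.2e-13) and Hoxa2 at 2.76 (adjusted p = 1.7e-05) per the authors' deposited table (DESeq2). Rises of 8.80, 7.70 and 6.78-fold correspond to these. Hoxa6 was called with an adjusted p of 0.00043 per the authors' deposited table (DESeq2). Of 24 entries listed at 0 before treatment with an adjusted p at 8 h, 23 were called higher, the share to set beside Hoxa6. Between 4 and 8 h the log2 values of Hoxa2, Hoxa3, Hoxa4 and Hoxa7 moved by 0.01 to 0.16 and that of Hoxa5 by 0.55. The untreated mean multiplied by the fold put Hoxa7 at 30.8 and Hoxa5 at 19.2 normalised reads per kilobase at 8 h. Hoxa4 came to 15.3, Hoxa2 to 14.8 and Hoxa3 to 7.53. These products use the deposited folds as they stand, and whether the fit pulled those towards 0 was not tested.

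After 24 h the 6 genes were still higher, against 11.5% of 17639 entries and 17.6% of those in the members' read range. The authors' deposited table gave 3.55 for Hoxa5 (adjusted p = 7.9e-08), 3.23 for Hoxa7 (1.9e-09), 2.66 for Hoxa3 (8.4e-11), 2.06 for Hoxa2 (0.0021) and 1.91 for Hoxa4 (0.0087) on the log2 scale, by DESeq2, and for Hoxa6 an adjusted p of 0.0089. For Hoxa6 the share to set beside its call is 23 of the 28 entries listed at 0 that had an adjusted p at 24 h. Each detected gene had a smaller value than at 8 h. The gap was 1.23 for Hoxa4, 0.70 for Hoxa2, 0.53 for Hoxa7, 0.29 for Hoxa3 and 0.22 for Hoxa5, with 0.26 for the median of well-read entries. Relative to that median the gap was 0.97 for Hoxa4 and 0.45 for Hoxa2, while Hoxa3 and Hoxa5 stayed within 0.04. Hoxa2 and Hoxa4 thus had the lowest values of the detected genes at 2 and 24 h, and Hoxa2 also had the lowest at 4 and 8 h. At 2 and 24 h Hoxa2 and Hoxa4 also had the largest adjusted p of the detected genes (DESeq2). Whether the fit pulled their values towards 0 was not tested. These differences were not tested, and the 24 h libraries carry a numbering of their own in the labels, so that whatever goes with it cannot be told apart from time.

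**Figure D2:**
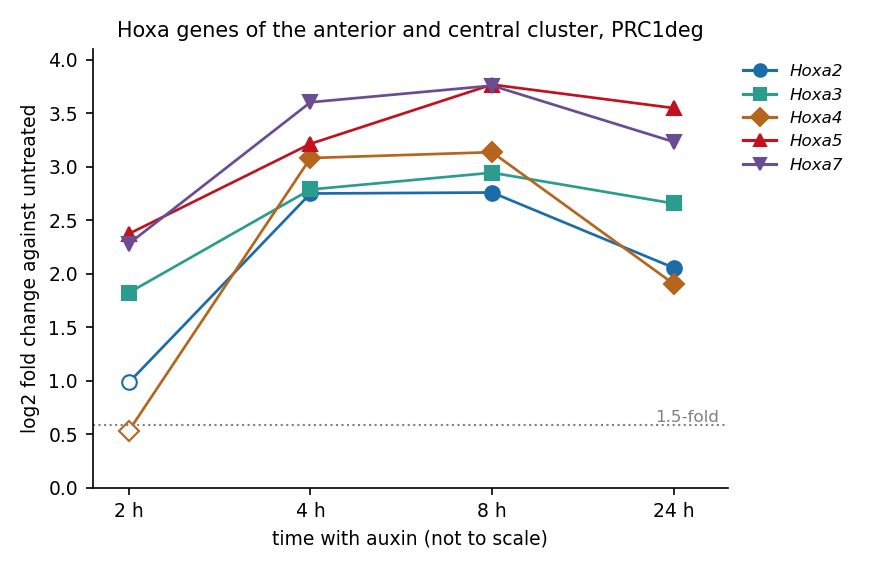
Log2 fold change against untreated PRC1deg cells (vertical axis) at 2, 4, 8 and 24 h of auxin (horizontal axis, not to scale) for the 5 genes detected before treatment; filled symbols were called higher by the authors' adjusted p and 1.5-fold, open symbols were not, and Hoxa6 is left out because it is listed at 0. Hoxa2 and Hoxa4 are lowest at 2 h, at 0.99 and 0.53, and at 24 h, and Hoxa2 is also lowest at 4 and 8 h, at 2.75 and 2.76.

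The median log2 fold change over the 6 genes was 1.41, 3.15, 3.45 and 2.95 in order of time, and without Hoxa6 it was 1.82, 3.08, 3.14 and 2.66. Over all entries with a value the medians were 0.11, 0.32, 0.44 and 0.19. Among 19957 entries ranked by log2 fold change at 8 h, Hoxa5 stood at rank 164 and Hoxa7 at rank 167, Hoxa4 at 299, Hoxa3 at 367 and Hoxa2 at 409. At 2 h Hoxa5 stood at rank 228, Hoxa7 at 257 and Hoxa3 at 379, whereas Hoxa2 stood at 879 and Hoxa4 at 1552.

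**Figure D3:**
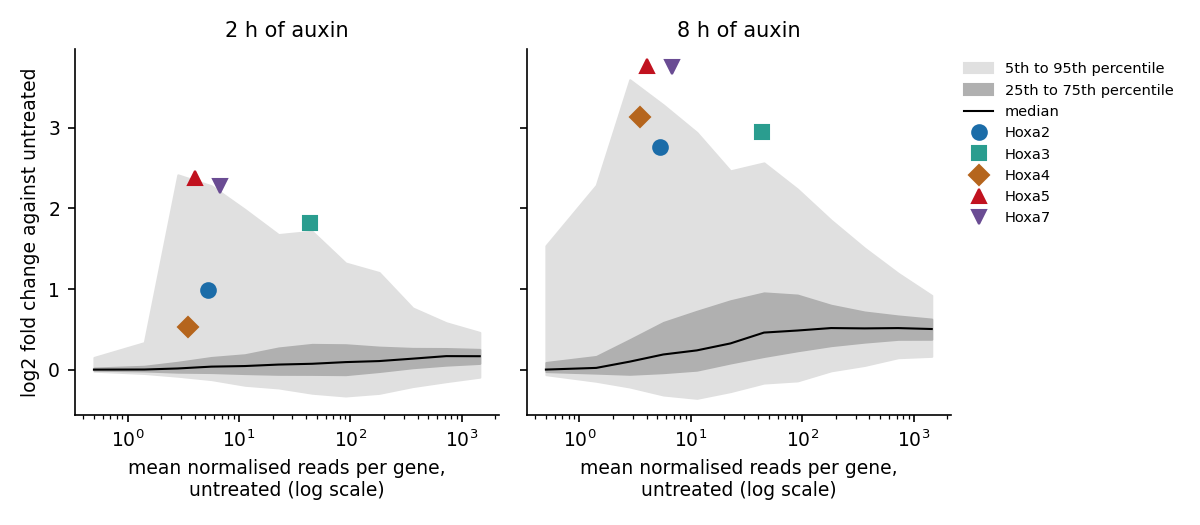
Log2 fold change at 2 h (left) and 8 h (right) of auxin against mean normalised reads per gene in untreated PRC1deg cells (log scale), with the 5 detected genes as symbols; the line is the median of all entries with like reads, the dark band their 25th to 75th and the light band their 5th to 95th percentile. Hoxa3 and Hoxa7 lie at or above the light band at both times, Hoxa5 lies at its upper edge or above, and Hoxa2 and Hoxa4 lie inside it. The bands describe the deposited values and are no measure of noise between libraries.

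From Hoxa2 to Hoxa13 the change tended to be larger towards the 5′ side, but not at every step. At 8 h Hoxa10 lay below Hoxa9, and Hoxa13 lay below Hoxa9, Hoxa10 and Hoxa11. Over the 9 of these Hoxa genes with untreated reads, Spearman's rho between order in the cluster and log2 fold change was 0.82, 0.88, 0.87 and 0.73 in order of time. Over the 5 detected members alone it was 0.6, 1.0, 0.9 and 0.6. Both are descriptions of genes that share their libraries and neighbourhood, and carry no test. On the 5′ side of the members, Hoxa9, a regulator of blood stem cells, reached 5.33 at 8 h per the authors' deposited table, Hoxa10, needed in the uterus, 4.83, Hoxa11, of limb and kidney, 7.09 and Hoxa13, of digits, 3.97. All 5 detected genes from Hoxa2 to Hoxa7 had smaller values than these 4 at 8 h, but at 24 h Hoxa5, at 3.55, stood above Hoxa13, at 3.47. From 8 to 24 h Hoxa9, Hoxa10 and Hoxa11 moved by -0.04, 0.13 and 0.00, and Hoxa13 by -0.50, close to the -0.53 of Hoxa7.

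**Figure D4:**
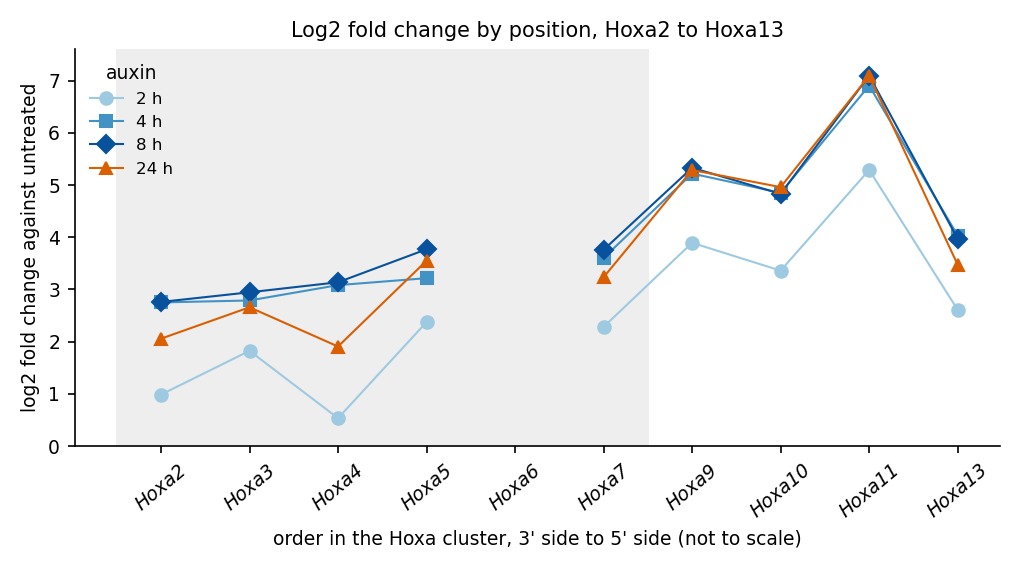
Log2 fold change against untreated PRC1deg cells for the genes from Hoxa2 to Hoxa13 in their order from the 3′ to the 5′ side (horizontal axis, not to scale) at 4 auxin times; the grey area holds Hoxa2 to Hoxa7, and Hoxa6 has no point because it is listed at 0. Values at 8 h go from 2.76 at Hoxa2 to 7.09 at Hoxa11 and back to 3.97 at Hoxa13. Hoxa4 dips below its neighbours at 2 and 24 h only.

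The entry of Hoxa3 needs a caution. At 44006 bp it is long enough to reach over Hoxa4, Hoxa5 and Hoxa6, which lie next to it on the same strand, and the tables hold no coordinates and do not say how shared reads were counted. The reads of Hoxa4, Hoxa5 and Hoxa6 together came to 7.51 before treatment, which is 17.5% of those of Hoxa3. At 8 h the untreated means times the fold came to 85.5 for Hoxa4 and Hoxa5 together, or 25.8% of the 331 of Hoxa3, with Hoxa6 left out. Without Hoxa3 the number of called genes was 2 of 5 at 2 h and 5 of 5 at each later time.

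Noncoding transcripts of the cluster were measured for 5 of 14 symbols listed. Mira, transcribed from between Hoxa6 and Hoxa7, had log2 fold changes of 0.89, 2.99, 3.47 and 2.91 at 2, 4, 8 and 24 h per the authors' deposited table, and was called higher from 4 h on. Hoxaas3, an antisense RNA of the cluster, was listed at 0 in untreated PRC1deg cells, as Hoxa6 was, and was likewise called at 4, 8 and 24 h and not at 2 h, with an adjusted p of 0.0015 at 4 h by the authors' deposited table (DESeq2). Of entries listed at 0 with an adjusted p, 28 of 28, 23 of 24 and 23 of 28 were called higher at 4, 8 and 24 h. Matching calls at these times are therefore no sign of a shared course. The libraries were directional, but whether strand was used in counting is not given in the sources used here, so reads of Hoxa genes and antisense RNAs cannot be told apart. Hoxa11os, on the 5′ side, was already at 4.09 at 2 h per the authors' deposited table, and Hottip, at the 5′ end, was called at 4 h only, with a value of 2.01 per the authors' deposited table. Halr1, at the 3′ side, had 1249 untreated reads and values between -0.45 and 0.51 by the authors' deposited table, with no call. In all 1, 4, 3 and 3 of the 5 were higher at the 4 times, against 5.55%, 16.1%, 25.7% and 11.5% of all entries tested.

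Of 9 genes flanking the cluster 1 was called higher at 2 h and 2 were at each later time, with medians of 0.20, 0.60, 0.55 and 0.28. Over all entries tested 5.55%, 16.1%, 25.7% and 11.5% were called higher at the auxin times. The counts of the neighbours were not tested against these shares, which are also to be set beside the lists that follow. Evx1, a homeobox gene next to Hoxa13, had 3.74 at 2 h and 3.91 at 8 h per the authors' deposited table. Jazf1, a zinc finger gene further out, had 0.66 at 2 h without a call and 1.73 at 8 h with one per the authors' deposited table. Snx10, a sorting nexin gene, and Cbx3, which encodes a heterochromatin protein, stood at 0.58 and 0.54 at 8 h by the authors' deposited table, near the median of 0.50 of well-read entries, and were not called.

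The paralogues of groups 2 to 7 in the Hoxb, Hoxc and Hoxd clusters were mostly called higher too. Of these 11 genes, calls of a rise numbered 6, 10, 9 and 10 in order of time with 0 lower, with medians of 1.80, 2.95, 3.00 and 3.21. Hoxd3 had log2 fold changes of 2.41, 2.84, 2.89 and 2.56 per the authors' deposited table, beside 1.82, 2.79, 2.95 and 2.66 for its paralogue Hoxa3, and its entry is also long, at 36279 bp. Hoxb3 went from 2.46 to 4.20 between 2 and 8 h per the authors' deposited table. Hoxd4 stood at 2.36 at 2 h and 3.10 at 8 h by the authors' deposited table, where Hoxa4 had 0.53 and 3.14. Hoxd4 had 14.1 untreated reads and Hoxa4 3.52, and their difference was not tested. The other two paralogues of group 4, named after their values were seen, were like Hoxa4 not called at 2 h: Hoxb4 had 0.99 at 2 h and 3.18 at 4 h, and Hoxc4 0.18 and 1.07, per the authors' deposited table. Hoxb7 had 2.00, 3.39, 3.46 and 3.55 per the authors' deposited table, beside 2.28, 3.60, 3.76 and 3.23 for Hoxa7, so that at 24 h the value of Hoxb7 was larger, and that of Hoxa7 smaller, than at 8 h. Hoxb6, picked out after its values were seen, was like Hoxa6 listed at 0 in both lines and called at 4, 8 and 24 h but not at 2 h, with an adjusted p of 0.0072 at 4 h per the authors' deposited table (DESeq2). As most entries listed at 0 with an adjusted p were called at 4, 8 and 24 h, these matching calls are no sign of a shared course. Hoxb5, also picked out afterwards, was the 1 paralogue never called, with 0.939 untreated reads and no adjusted p after 2 h. Over 32 Hox genes outside the 6, there were 19, 27, 26 and 27 higher at the 4 times, so that rising was not particular to the central Hoxa genes.

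**Figure D5:**
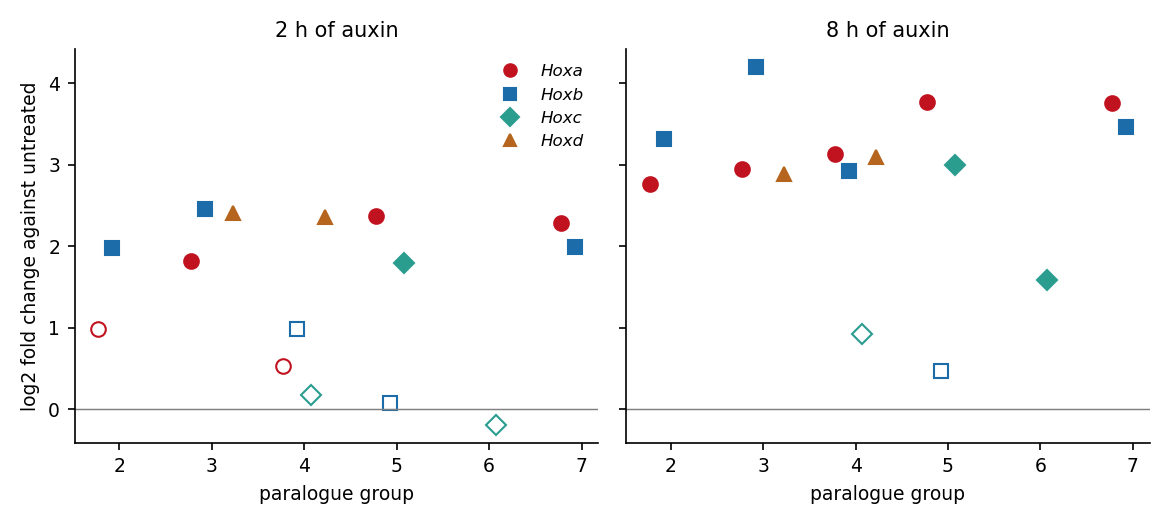
Log2 fold change at 2 h (left) and 8 h (right) of auxin for the genes of paralogue groups 2 to 7, by cluster; filled symbols were called higher, open ones were not, and Hoxa6 and Hoxb6 have no point because they are listed at 0. At 2 h Hoxa2, Hoxa4, Hoxb4, Hoxb5, Hoxc4 and Hoxc6 are open and the other points are filled, and at 8 h all Hoxa points lie above 2.7.

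HOX proteins bind DNA with the TALE homeodomain proteins of the Meis, Pbx and Pknox families. Of 8 such genes, 3, 4, 6 and 5 rose in order of time, or 3, 4, 4 and 4 after centring, and 0 were lower. Meis2 had 3.07 and Meis1 1.84 at 2 h by the authors' deposited table, a time at which Hoxa2 and Hoxa4 were not called. Pbx3 had 0.87 at 2 h and 1.34 at 8 h per the authors' deposited table. Pknox2 had 0.22 at 2 h without a call and 1.73 at 8 h with one by the authors' deposited table.

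Regulators of Hox genes were followed as well. Of 12 listed genes 5, 7, 9 and 7 were higher, or 5, 6, 9 and 7 after centring, and 0 were lower. Egr2, which drives Hoxa2 in the hindbrain, had 3.09 at 2 h and 3.43 at 4 h per the authors' deposited table, and Tfap2a, a neural crest factor, had 2.14 and 2.83. Cdx2, an activator of central and posterior Hox genes, was listed at 0 in untreated PRC1deg cells and was called at every auxin time, with an adjusted p of 2.0e-09 at 2 h by the authors' deposited table (DESeq2). Its calls from 4 h on are to be read against the shares given above for entries listed at 0. Wnt3a, a ligand of the posterior embryo, had 1.69 at 2 h and 2.33 at 8 h per the authors' deposited table. The retinoic acid receptor genes Rara, Rarb and Rarg, named after their values were seen, were not called at any auxin time.

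Of 12 genes of retinoic acid synthesis, breakdown and transport, 3, 5, 7 and 7 were higher at the 4 times and 0 were lower. After centring 3, 3, 4 and 7 were higher and 0 were lower. The shares of all entries called higher, without centring, were 5.55%, 16.1%, 25.7% and 11.5%. Aldh1a2, the main enzyme that makes retinoic acid in the embryo, had 1.91 at 2 h and 2.35 at 4 h per the authors' deposited table. The degrading enzymes Cyp26a1 and Cyp26c1 had 1.89 and 1.45 at 2 h by the authors' deposited table. Aldh1a3 was not called at 2 h and had 1.57 at 8 h per the authors' deposited table.

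Markers of other cell types also moved over this time, while 25.7% of all entries tested were called higher at 8 h. At 8 h 6 of 6 primitive endoderm markers were higher, or 5 after centring, and their summed level went from 23.3 to 100.4 normalised reads per kilobase, and 4 of 6 mesoderm markers were higher with a sum going from 14.7 to 106.6. For neural progenitor markers 4 of 6 were higher and the sum went from 239 to 481. For trophoblast markers 3 of 5 were higher, with a sum going from 72.7 to 168.9 without Cdx2, which is listed at 0. Fibroblast markers had 1 of 6 higher, or 0 after centring, and a sum of 122.6 before and 154.3 at 8 h, with Dcn and Lum at 0 before. The 9 pluripotency markers had 0 called at 8 h and sums of 13940 before and 15018 at 8 h. Each sum at 8 h is of untreated means times the deposited fold. The part of these cell types in the rise of the Hoxa genes was not tested, and in bulk RNA more cells with a transcript and more transcript per cell cannot be told apart.

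The genes whose courses came nearest to the median course of the 6 genes, by Euclidean distance over the 4 auxin log2 fold changes and outside the Hox clusters, were Cdk14 at 0.39, Fli1 at 0.45, Mecom at 0.45, Cacnb2 at 0.47 and 9230102O04Rik at 0.51. The median distance of the 18685 symbols ranked was 5.13. The 6 genes themselves lay further from their median course than these 5 did, from 0.80 for Hoxa3 to 3.89 for Hoxa6. The named genes are thus near the median course and not near any 1 member by this measure. Cdk14 encodes a cyclin-dependent kinase, Fli1 and Mecom encode transcription factors of blood cells, and Cacnb2 encodes a calcium channel subunit. Cdk14 had values of 1.65, 3.07, 3.17 and 2.84 at 2, 4, 8 and 24 h per the authors' deposited table, from 201.8 untreated reads. Without Hoxa6 in the median, 2 of these 5 remained among the nearest 5, Cdk14 and Fli1. Mira, from within the cluster, was at rank 8 with a distance of 0.54.

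After 2 h of dTAG-13 none of the 6 genes was called in PRC2deg cells, where 0% of 19506 entries were called. In the authors' deposited table (DESeq2) their log2 fold changes lay between 1.9e-09 for Hoxa4 and 1.1e-06 for Hoxa3, and each had an adjusted p of 0.999956. These adjusted values allow at most 975 of all entries an unadjusted p under 0.05, and how many of the 6 are among them is not known. The largest absolute log2 fold change of any entry in this comparison was 0.00098. Fold changes this near 0 give no usable size. Hoxa4, Hoxa7, Hoxa5 and Hoxa2 also had means of only 1.44, 1.62, 1.89 and 2.45 untreated reads in this line. Whether the lines differed was not tested.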

How the data were processed

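Per the labels' protocols, nuclei were isolated from stem cells mixed with Drosophila cells, and rRNA-depleted, directional libraries were read as paired ends. The submitters' processing notes name Bowtie2, STAR, SAMtools, bedtools and DESeq2 with builds mm10 and dm6, without versions. Per the file headers, the authors deposited log2 fold changes, adjusted p-values, entry lengths and an untreated mean. That mean is headed as RPKM but was read as the authors' signal in normalised reads per kilobase, since times length it sums to 30450536 in PRC1deg. The tables hold no counts per library, so the authors' DESeq2 values were used as they stand and no model was fitted. Two-sided calls needed an adjusted p under 0.05 and over 1.5-fold. All 6 genes had an adjusted p in every table. Lists, markers and the 6 genes were chosen with earlier results of these data known. Up to 4 genes per list were to be named, by smallest adjusted p at 2 h of auxin, plus the 5 nearest courses. Results on 2 listed genes are not reported here, and both are left out of the list counts. Functions for calls, entry choice and distance were tested on simulated data. Python 3.11.15, numpy 2.4.6, pandas 2.3.3, scipy 1.17.1 and matplotlib 3.10.9 were used. Alternatives were other thresholds, centring, the longest entry per symbol, and minimum reads. P-values are those of the authors' DESeq2 fit, which sets a change against its estimate of the variation between libraries labelled as biological replicates.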

Additional observations from a re-analysis of the deposited data

How the results depend on the processing

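The numbers of called genes stayed at 3 of 6 at 2 h and 6 of 6 at 4, 8 and 24 h under several settings. These were an adjusted p under 0.01, a 2-fold threshold, and centring on the median of well-read entries (50 or more reads untreated). Taking the longest entry per symbol could change nothing, as each of the 6 genes had 1 entry. With no fold threshold 4 were called at 2 h, Hoxa6 being added. With 10 or more untreated reads required, Hoxa3 alone was left and was called at each auxin time, 1 of 1, and with 50 or more no member was left. With centring the median log2 fold change was 1.25 at 2 h, 2.75 at 4 h, 2.95 at 8 h, 2.71 at 24 h and 5.2e-07 after dTAG-13. With 10 or more reads it was 1.82, 2.79, 2.95, 2.66 and 1.1e-06. Alternatives without Hoxa6 or without Hoxa3 were chosen after seeing the data. Without Hoxa6 the medians were 1.82, 3.08, 3.14, 2.66 and 1.5e-07, and without Hoxa3 0.99, 3.22, 3.76, 3.23 and 1.2e-07. Of the 5 nearest courses, 2 remained without Hoxa6. With 10 or more reads required 4 remained, and this filter could only drop 9230102O04Rik, at 2.36 untreated reads. Centring left all 5 by construction, since it moves every gene and the median course alike. No paired analysis was possible because the tables hold no values per library, and for the same reason no library could be left out. Depth limits Hoxa2, Hoxa4, Hoxa5, Hoxa6 and Hoxa7, each under 7 mean untreated reads.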
